A study of Gallus gallus with 6 samples.

Results

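The 7 complex I subunits that the chicken mitochondrial genome encodes (ND1, ND2, ND3, ND4, ND4L, ND5 and ND6) were followed in bursal lymphocytes of the chick embryo. They were taken by gene name as the full set of such genes, and all 7 were found among the 19219 genes of the count table, with symbols that come from the authors' table of called genes. The bursa of Fabricius is the organ in which birds make their B-cells, and the study compared embryonic day 16 (ED16) with embryonic day 19 (ED19) to find genes that change around the start of immunoglobulin repertoire development. Embryos came from the Hy-Line W-36 commercial layer line, with 3 libraries per stage (ED16_1 to ED16_3 and ED19_4 to ED19_6), each made from its own pool of 52 to 55 bursas. Lymphocytes were taken from a density gradient, and the methods describe no sorting of B-cells after it. Poly-A RNA was sequenced in bulk, so fewer cells of a type and less RNA per cell cannot be told apart in any value below.

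Complex I, the NADH:ubiquinone oxidoreductase, takes electrons from NADH into the respiratory chain and pumps protons across the inner mitochondrial membrane. It is built from 2 genomes: nuclear genes supply the matrix arm, where NADH is oxidised, and many accessory subunits, whereas the 7 mitochondrial genes supply the hydrophobic core of the membrane arm. Within that core ND1 lies beside the quinone binding site, ND2, ND4 and ND5 are the antiporter-like subunits that carry proton channels, and ND3, ND4L and ND6 are small subunits between them. In vertebrates mitochondrial genes are transcribed as long polycistronic RNAs that are cut into single messengers. ND6 is the only one of the 7 that is read from the other strand, and in human mitochondria its messenger largely lacks the poly-A tail that the others carry.

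All 7 subunits were expressed more highly at ED16 than at ED19, between 2.42-fold for ND5 and 11.9-fold for ND6. ND1, ND2, ND4, ND4L and ND5 lay between 2.42-fold and 2.97-fold, ND3 stood at 5.62-fold and ND6 at 11.9-fold. Each gene was called when the Benjamini-Hochberg adjusted p of edgeR's quasi-likelihood test over 13923 genes was below 0.05. All 7 were called higher at ED16. Their symbols come from genes that the authors had called, so the number called is not informative. The direction of calls moved with gene length in these libraries, as given below, so it is to be read beside genes of like length. Among tested genes that carry a symbol, 51.8% were called higher at ED16 and 47.6% higher at ED19. Over all tested genes 35.6% were called higher at ED16, 30.8% higher at ED19 and 66.4% in either direction. In none of the 7 did the stages overlap. For genes found through the authors' calls this is not informative either. On edgeR's normalized counts 38.4% of all tested genes had every ED16 library above every ED19 library, and 71.5% were without overlap in either direction. The median log2 fold change of the 7 (ED16 over ED19, as throughout) was 1.52. The median was 0.76 over tested genes with a symbol and 0.05 over all tested genes.

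Levels are given as RPKM, reads per kilobase of gene scaled to a common library total, which allows genes of different length to be set side by side. ND1 had 7380, 8383 and 5908 RPKM in ED16_1, ED16_2 and ED16_3, and 3260, 3037 and 1740 RPKM in ED19_4, ED19_5 and ED19_6. The lowest ED16 library was 1.81 times the highest ED19 library, and ED19_6 was clearly below the other 2 of its stage. The log2 fold change was 1.50 (SE 0.27, edgeR adjusted p = 0.0014), a 2.82-fold difference on edgeR's normalized counts. Mean levels were 7223 ± 1245 RPKM at ED16 and 2679 ± 821 RPKM at ED19 (SD, n = 3 each). ND1 was the highest of the 7 in every library.

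The antiporter-like subunits behaved much as ND1 did. ND2 had 2941, 3345 and 2433 RPKM at ED16 and 1320, 1296 and 592 RPKM at ED19. Its log2 fold change was 1.52 (SE 0.28, edgeR adjusted p = 0.0017). ND4 had 3760, 4289 and 2905 RPKM at ED16 and 1760, 1594 and 726 RPKM at ED19. In both genes ED16_2 was the highest library and ED19_6 the lowest, by a wide margin. The log2 fold change of ND4 was 1.50 (SE 0.31, edgeR adjusted p = 0.0029). ND5, the outermost of the proton-pumping subunits, had 3308, 3753 and 2566 RPKM at ED16 and 1810, 1690 and 695 RPKM at ED19. Its log2 fold change of 1.28 (SE 0.33, edgeR adjusted p = 0.0087) was the smallest of the 7, and its stages were also the closest to each other, with the lowest ED16 library at 1.42 times the highest ED19 library.

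Of the small subunits, ND4L was the least precisely measured. It had 421, 396 and 558 RPKM at ED16 and 222, 219 and 53.9 RPKM at ED19, and here ED16_3 rather than ED16_2 was the highest library. The log2 fold change was 1.57 (SE 0.42, edgeR adjusted p = 0.0099). The 53.9 RPKM of ED19_6 rested on 434 counts, against 1876 or more in every other library. ND4L overlaps ND4 in the RefSeq annotation of the chicken mitochondrial genome, and reads from the shared stretch may have been given to either gene or to none. The values of ND4L, here and below, can therefore not be read as the level of a messenger apart from ND4.

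ND3 had 2345, 2120 and 2039 RPKM at ED16 and 402, 340 and 444 RPKM at ED19. The libraries of a stage lay close together, ED19_6 was the highest of the ED19 libraries, and the lowest ED16 library was 4.60 times the highest ED19 library. The log2 fold change was 2.49 (SE 0.19, edgeR adjusted p = 4.5e-05).

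ND6 had 1510, 1521 and 1639 RPKM at ED16 and 144, 114 and 144 RPKM at ED19. Both stages were tight, with means of 1557 ± 71.7 and 134 ± 17.3 RPKM (SD, n = 3 each), and the lowest ED16 library was 10.5 times the highest ED19 library. The log2 fold change was 3.58 (SE 0.19, edgeR adjusted p = 2.3e-05). The sources used here do not say whether reads were counted by strand, so reads from ND6 and from RNA of the opposite strand at that place cannot be told apart. Whether the poly-T selection of the libraries took up ND6 messengers to a different degree at the 2 stages was not tested.

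**Figure D1:**
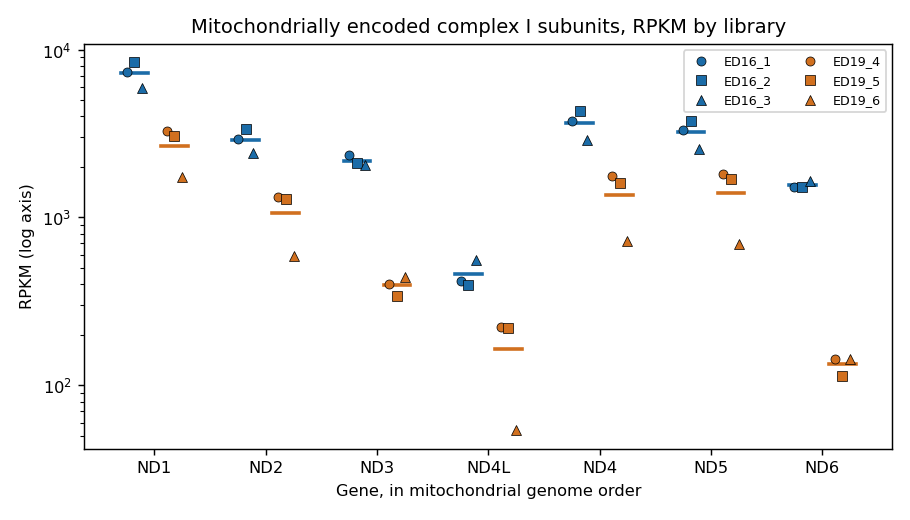
RPKM (log axis) of each subunit in each library, in mitochondrial genome order, with ED16 in blue, ED19 in orange and a bar at each stage mean. No subunit has overlapping stages, ED19_6 (orange triangle) drops below its stage in 5 genes but not in ND3 or ND6, and ND6 shows the widest gap, 1510 to 1639 against 114 to 144 RPKM.

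The order of the levels was nearly the same in all libraries. In every ED16 library and in ED19_6 the order by RPKM was ND1, ND4, ND5, ND2, ND3, ND6 and ND4L. ED19_4 and ED19_5 differed from it by 2 exchanges of neighbours. ND5 was there slightly above ND4, with ND4 over ND5 ranging from 0.943 to 1.14 over the 6 libraries, so those neighbours were not separated. ND4L was there above ND6, and ND6 over ND4L ranged from 0.523 in ED19_5 to 3.84 in ED16_2. ND1 exceeded ND4 by 1.85 to 2.40 times in all 6 libraries.

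The 7 subunits together took 2.32%, 2.60% and 1.87% of all gene counts in the ED16 libraries and 1.06%, 0.982% and 0.482% in the ED19 libraries. The stages did not overlap, and the mean shares were 2.26 ± 0.37% and 0.840 ± 0.312% (SD, n = 3 each). The stage means of the log2 shares differed by 1.50. ND1, ND5 and ND4, in that order, gave most of these counts at ED16, and the gap is carried by them rather than by ND6, which gave 0.0813 ± 0.0037% of all gene counts at ED16 and 0.0070 ± 0.0009% at ED19. Without ED19_6 the log2 difference of the summed share was 1.14, and without both ED16_3 and ED19_6, the lowest library of each stage, it was 1.27 (the latter chosen after the values were seen).

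**Figure D2:**
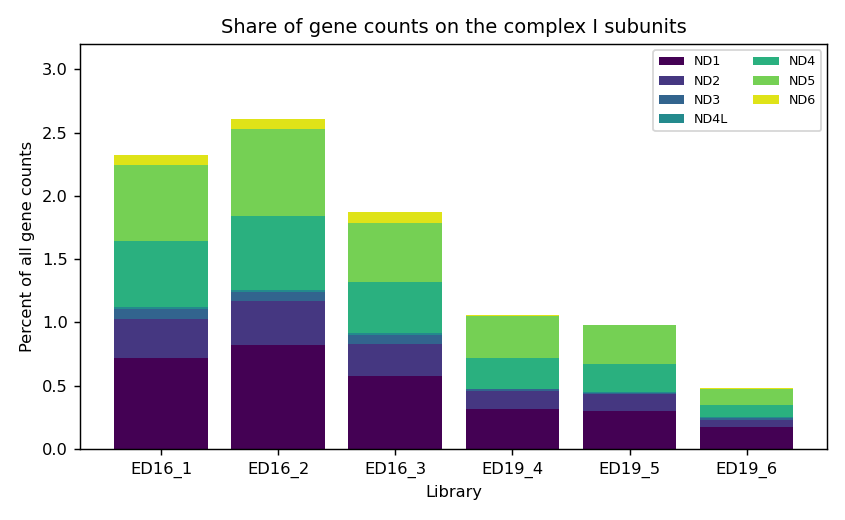
Percent of all gene counts that fell on the 7 subunits in each library, stacked by gene. The ED16 bars reach 1.87% to 2.60% and the ED19 bars 0.482% to 1.06%, and ND1, ND4 and ND5 fill most of every bar.

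ED19_6 stood apart within its stage. Its RPKM relative to the mean of ED19_4 and ED19_5 was 0.553 for ND1, 0.452 for ND2, 0.433 for ND4, 0.397 for ND5 and 0.245 for ND4L, but 1.20 for ND3 and 1.12 for ND6. Over all tested genes such a ratio, taken on TMM-normalized counts, had a median of 0.979 and quartiles of 0.751 and 1.26. The scaling differs from that of RPKM, so the member ratios cannot be placed exactly among these quartiles. With TMM scaling the summed share of the members was 0.974% in ED19_4, 0.933% in ED19_5 and 0.524% in ED19_6. Without it the shares were 1.06%, 0.982% and 0.482%, so TMM narrows the gap of ED19_6. ED16_3 had 0.722 to 0.774 times the mean of ED16_1 and ED16_2 for ND1, ND2, ND4 and ND5, 0.913 for ND3, 1.08 for ND6 and 1.37 for ND4L. The split was only partly that of ED19_6, since ND4L had the highest ratio in ED16_3 and the lowest in ED19_6. When ED19_6 was left out, edgeR's log2 fold changes of the long subunits fell to 1.27 for ND1, 1.22 for ND2, 1.19 for ND4 and 0.94 for ND5, that of ND4L fell to 1.13, and those of ND3 and ND6 moved to 2.62 and 3.66. All 7 remained called in each of the 6 fits that left out 1 library, with adjusted p between 5.8e-07 and 0.042.

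Within the set, ND6 moved away from the others between the stages. The log2 RPKM of ND6 minus the mean of the other 6 came to -0.75, -0.82 and -0.44 in the ED16 libraries and to -2.84, -3.07 and -1.74 in the ED19 libraries, a difference of 1.88 with no overlap. ND1 over ND6 by RPKM came to 4.89, 5.51 and 3.60 at ED16 but to 22.6, 26.6 and 12.1 at ED19. ND6 thus made up 6.39% to 9.08% of the summed RPKM of the 7 at ED16 and 1.38% to 3.28% at ED19. ND1, ND2, ND4 and ND5 were lower at ED16 relative to the other members, by -0.54, -0.48, -0.49 and -0.73, without overlap. These 4 values are not independent of those of ND6 and ND3, since each member was measured against the rest. ND3 was higher at ED16 by 0.62 on this scale, but ED19_6, at 0.15, lay above all ED16 libraries. ND4L overlapped between the stages, with a difference of -0.25.

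**Figure D3:**
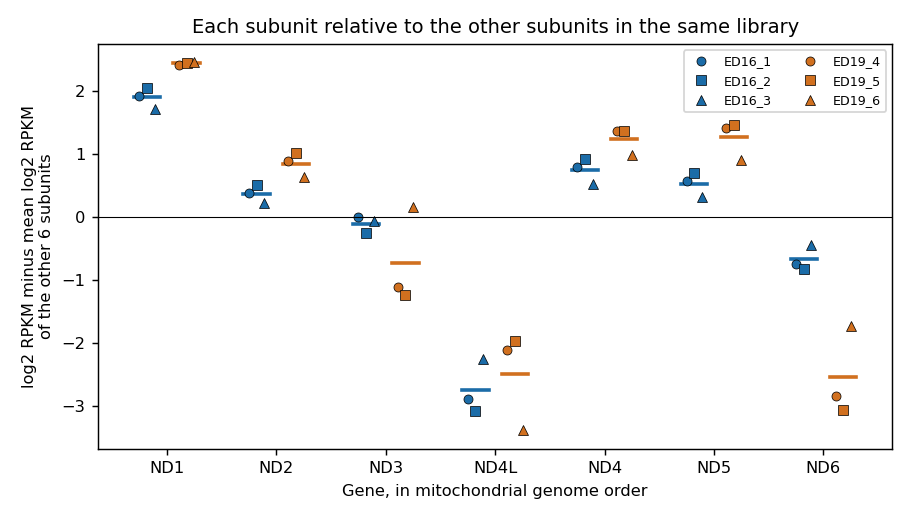
log2 RPKM of each subunit minus the mean log2 RPKM of the other 6 in the same library, with ED16 in blue, ED19 in orange and a bar at each stage mean. ND6 lies at -0.82 to -0.44 at ED16 and at -3.07 to -1.74 at ED19, and ND3 is split at ED19 between ED19_6, at 0.15, and the other libraries, at -1.12 and -1.24.

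The mitochondrial genome also encodes subunits of other respiratory complexes, which gave a comparison inside the same genome. CYTB of complex III, COX1 and COX3 of complex IV and ATP6 and ATP8 of ATP synthase were found by symbol, and all 5 were called higher at ED16 (log2 fold change 1.52, 1.21, 1.68, 2.13 and 3.74). ATP8 rested on 7 to 30 counts per library at ED19 and overlaps ATP6. COX1 was not called without ED16_1 or without ED16_2 (adjusted p = 0.061 and 0.062, edgeR), nor with limma on log2(RPKM + 1) (adjusted p = 0.065). The summed counts of the 7 complex I subunits relative to those of the 5 others were 0.498, 0.534 and 0.611 at ED16 and 0.521, 0.565 and 0.522 at ED19. These ratios overlapped between the stages, and their log2 difference of 0.03 was smaller than the pooled SD of 0.12. Leaving out 1 library moved it between -0.05 and 0.09.

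The same comparison was then made gene by gene, with every library scaled to the summed counts of the 5 other mitochondrial mRNAs, a setting chosen after the values were seen. Of the 7 members ND6 was called (log2 fold change 2.0, edgeR adjusted p = 0.00095), and with this scaling 12.3% of all tested genes were called higher at ED16 and 75.3% in either direction. ND6 counts were 1.69%, 1.63% and 2.79% of the counts of the 5 other mRNAs at ED16 and 0.372%, 0.343% and 0.816% at ED19, without overlap. The call held in each of the 6 fits that left out 1 library, with log2 fold changes between 1.70 and 2.51. ATP8, itself among the 5 reference mRNAs, was also called on this scale (log2 fold change 2.26, edgeR adjusted p = 3.9e-05). It rested on 7 to 30 counts per library at ED19. ND3 counts were 1.77%, 1.53% and 2.34% at ED16 and 0.696%, 0.686% and 1.69% at ED19, so ED19_6 reached into the range of ED16. The log2 fold change of ND3 on this scale was 0.88 (edgeR adjusted p = 0.11), and without ED19_6 it was 1.44 (adjusted p = 0.0008).

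The other 5 members were not called relative to the 5 other mitochondrial mRNAs. Measured as log2 differences of the count ratios, ND1 differed by -0.0040 (pooled SD 0.13), ND2 by 0.05 (0.15), ND4 by 0.03 (0.11), ND5 by -0.17 (0.16) and ND4L by 0.24 (0.61). For ND1, ND2 and ND4 the difference was below the spread between libraries, and ED16 and ED19 libraries were interleaved. For ND5 it was about as large as the spread, and for ND4L the spread was too wide to place a difference of that size. Per-library values of ND1 were 15.5%, 16.8% and 18.8% at ED16 and 15.7%, 17.04% and 18.4% at ED19.

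The partner subunits of the nuclear genome were looked up next. Gene symbols are given only in the table of genes that the authors called. For nuclear lists, as for the 7 members, the number called is thus not informative, and the direction is to be read beside genes of like length. Of 2493 tested genes between 600 and 1200 bases, 1241 were called higher at ED16 and 332 higher at ED19. Among tested genes that carry a symbol, 51.8% were called higher at ED16 and 47.6% higher at ED19. Of 37 nuclear complex I subunits listed, 16 were found, and all 16 were called higher at ED16, with log2 fold changes from 0.81 to 2.30 and a median of 1.40, against 0.76 over tested genes with a symbol. NDUFA1, a small membrane-arm subunit, had 243, 191 and 295 RPKM at ED16 and 47.5, 42.7 and 61.8 RPKM at ED19 (log2 fold change 2.30, edgeR adjusted p = 0.00015). NDUFA2, NDUFS5 and NDUFS6, accessory subunits, had log2 fold changes of 1.95, 1.75 and 1.54. On edgeR's normalized counts the stages did not overlap in 15 of the 16 genes, and 71.5% of all tested genes were without overlap in either direction. Like the number called, this count is not informative for genes found through the authors' calls. NDUFB9 overlapped on these counts, though by RPKM its lowest ED16 library (149) lay just above its highest ED19 library (140). NDUFB9 was not called in 4 of the 6 fits that left out 1 library (adjusted p up to 0.12, edgeR).

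On average over the set, the mitochondrial members stood well above their nuclear partners in every library. Single genes departed from this. In ED19_6 ND4L (53.9 RPKM) lay below all 16 nuclear subunits except NDUFB4 (52.5 RPKM) and NDUFS6 (53.8 RPKM). ND6 (144 RPKM) lay there below NDUFB6 (189 RPKM) and NDUFB8 (201 RPKM). In ED19_5 ND6 (114 RPKM) lay below NDUFB8 (120 RPKM). The mean log2 RPKM of the 7 exceeded that of the 16 nuclear subunits by 3.69, 3.98 and 3.43 at ED16 and by 3.71, 3.64 and 2.11 at ED19. The stages overlapped, and the difference of 0.55 was smaller than the pooled SD of 0.67. It rested on ED19_6, without which it was 0.02. Summed over the 16 nuclear genes, CPM (counts scaled to a common library total) came to 859, 822 and 1353 in ED19_4, ED19_5 and ED19_6, against 2187 to 2754 at ED16. The nuclear sum was thus highest within ED19 in ED19_6, as ND3 was, whereas ND1, ND2, ND4, ND4L and ND5 were lowest there.

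**Figure D4:**
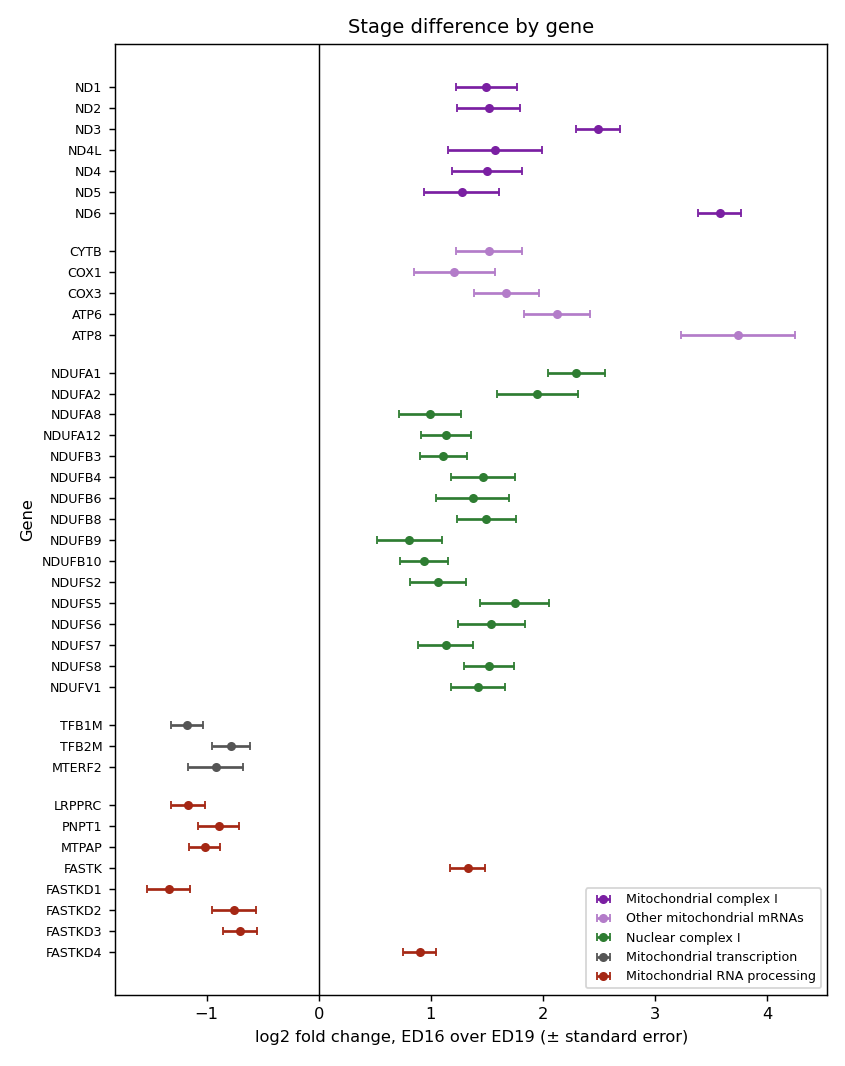
log2 fold change (ED16 over ED19) with its standard error from edgeR for the 7 mitochondrial complex I subunits, the other mitochondrial mRNAs, the nuclear complex I subunits and genes of mitochondrial transcription and RNA processing. Nuclear genes are plotted only where a symbol was found, which for complex I is 16 of 37. All plotted complex I genes lie to the right of 0, between 0.81 and 3.58. The 3 genes listed for transcription and 6 of the 8 RNA processing genes lie to the left.

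Most of the genes found for mitochondrial transcription and RNA processing went in the other direction. They are only part of each list and were found through the authors' calls, so the number called is again not informative. The direction is again to be read beside gene length. The RNA processing genes had a median length of 3253.5 bases and the transcription genes one of 2010 bases. Of 5854 tested genes above 2400 bases, 2665 were called higher at ED19 and 1568 higher at ED16. Between 1200 and 2400 bases these numbers were 1194 and 1616 of 4622. Among tested genes that carry a symbol, 47.6% were called higher at ED19 and 51.8% higher at ED16. Of 9 genes listed for mitochondrial transcription 3 were found, and all 3 were called higher at ED19. They were TFB2M, which opens the promoter for the mitochondrial RNA polymerase (10.03, 11.6 and 10.7 RPKM at ED16, 17.6, 18.6 and 20.8 RPKM at ED19, log2 fold change -0.78), TFB1M, which methylates the small ribosomal RNA (-1.17), and MTERF2, a member of the termination factor family (-0.92). Of 18 genes of mitochondrial RNA processing and stability 8 were found, 6 of them higher at ED19 and 2 higher at ED16. After a correction of each library for gene length, 4 were called higher at ED19, without FASTKD2 (-0.40, adjusted p = 0.13, edgeR) and FASTKD3 (-0.31, adjusted p = 0.1). LRPPRC, which in mammals binds and stabilises mitochondrial mRNAs, had 63.5, 76.5 and 79.6 RPKM at ED16 and 170, 182 and 157 RPKM at ED19 (log2 fold change -1.16, edgeR adjusted p = 0.00032). MTPAP, the mitochondrial poly-A polymerase, had a log2 fold change of -1.01 and FASTKD1, an RNA-binding protein of the FASTK family, one of -1.34. FASTK, which in mammals is required for normal ND6 mRNA levels, went the other way, with 113, 94.6 and 97.0 RPKM at ED16 and 41.4, 39.5 and 43.9 RPKM at ED19 (log2 fold change 1.33, edgeR adjusted p = 0.0002), as did its relative FASTKD4 (0.90).

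Genes of mitochondrial DNA maintenance were divided. Of 13 listed 6 were found. TWNK, the replicative helicase (1.26), DGUOK, a mitochondrial nucleoside kinase (1.15), MPV17, a membrane protein (1.14) and SSBP1, the single-strand DNA-binding protein (0.81) were called higher at ED16. SUCLA2, a subunit of succinyl-CoA ligase (-1.08), and TK2, the mitochondrial thymidine kinase (-1.05), were called higher at ED19. Of 18 complex I assembly factors 1 was found, FOXRED1, with a log2 fold change of 1.68. Of 12 genes listed for mitochondrial mass 4 were found, with citrate synthase (CS, 1.22), VDAC1 (1.77) and TOMM22 (0.91) higher at ED16 and OPA1 (-1.27) higher at ED19.

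Gene length moved with stage in these libraries. The median log2 fold change was 1.02 over the 954 tested genes of up to 600 bases, 0.68 between 600 and 1200 bases, 0.10 between 1200 and 2400 bases and -0.41 above that. Calls moved likewise. In the shortest group 528 genes were called higher at ED16 and 96 higher at ED19. These numbers were 1241 and 332 in the next group, 1616 and 1194 in the third and 1568 and 2665 in the longest. The members are short, from 297 bases for ND4L to 1818 for ND5 with a median of 975, as were the nuclear complex I subunits (median 818.5 bases), while the 8 RNA processing genes were long (median 3253.5 bases). Within the 7, the 3 shortest genes, ND4L (297 bases), ND3 (351) and ND6 (522), had the 3 largest log2 fold changes (1.57, 2.49 and 3.58), and the longest, ND5, had the smallest. Among those 3 the order of the fold changes did not follow that of length. The place of ND4L (SE 0.42) was not separated from ND1, ND2 and ND4, at 1.50 to 1.52. Without ED19_6 ND4L, at 1.13, fell below those genes, at 1.19 to 1.27. Without ED16_3 ND4L, at 1.38, was the smallest of the 7, just below ND5, at 1.39. After a correction of each library for length that kept the mean shift between the stages, 6 of the 7 were called higher at ED16, against 34.5% of all tested genes called higher at ED16 and 29.2% called higher at ED19. The log2 fold changes were then 2.83 for ND6, 1.70 for ND3 and 1.05 to 1.29 for ND1, ND2, ND4 and ND5. ND4L, at 0.74, was no longer called (adjusted p = 0.17, edgeR). A correction that also removed the mean shift, chosen after the values were seen, left 4 of the 7 called, without ND1 (0.62, adjusted p = 0.086, edgeR), ND2 (0.69, adjusted p = 0.068) and ND4L (0.33, adjusted p = 0.5). The part of length in the stage difference was not otherwise tested.

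**Figure D5:**
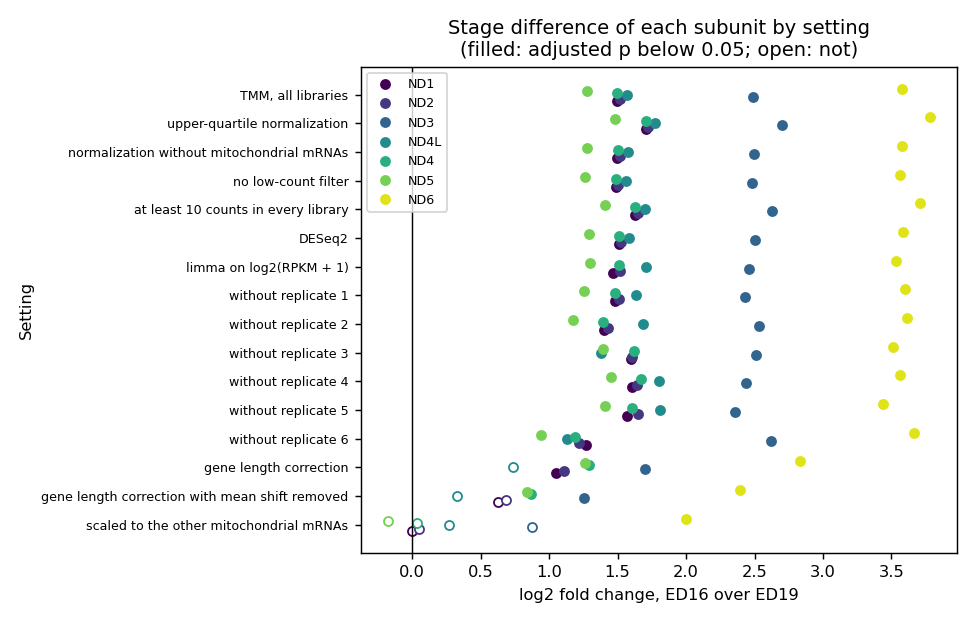
log2 fold change of each subunit (ED16 over ED19) under each setting, filled where the adjusted p was below 0.05. ND6 and ND3 lead under every setting, ND4L turns open after the length correction, and with scaling to the other mitochondrial mRNAs ND6 alone stays filled, at 2.0.

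Libraries of the 2 stages also differed in genes of other cell types. Markers too could be found only among genes that the authors had called, so the number called is not informative. Among tested genes that carry a symbol, 51.8% were called higher at ED16 and 47.6% higher at ED19. Of 20 kidney markers 10 were found, all called higher at ED16, and their summed CPM lay between 285 and 794 at ED16 and between 21.3 and 27.6 at ED19, where AGXT and PIPOX were at 0 in every library. Of 16 erythroid markers 8 were found, all higher at ED16, summing to a CPM of 3558 to 5107 at ED16 and 136 to 239 at ED19. All 10 tested epithelial markers (205 to 446 against 11.2 to 17.9), all 8 T-cell markers (326 to 472 against 138 to 213) and all 6 tested fibroblast markers (73.4 to 86.5 against 18.4 to 27.5) were higher at ED16. The summed CPM covers every marker found, tested or not, which were 11 epithelial, 7 fibroblast and 6 endothelial genes. Of 5 tested endothelial and 5 myeloid markers, 4 each were called higher at ED16 and 1 each higher at ED19, but the summed CPM of the myeloid markers was higher at ED19 (254 to 286 against 404 to 419) and that of the endothelial markers overlapped (13.0 to 18.3 against 8.90 to 30.1). Of 14 B-cell markers 4 were found, all 4 higher at ED19 (306 to 366 against 754 to 1144). The summed members were highest in ED16_2 and lowest in ED19_6. Within ED16 the kidney, erythroid, epithelial and fibroblast markers were highest in ED16_1. The T-cell, endothelial and myeloid markers were highest in ED16_2, and the B-cell markers in ED16_3. Within ED19 the B-cell, epithelial, endothelial and myeloid markers were lowest in ED19_6. Kidney and T-cell markers were highest there, and erythroid and fibroblast markers were neither. The methods also give a lower mean RNA integrity at ED16 than at ED19. The authors further report a higher GC content of the reads and a lower share of mapped reads in every ED16 library than in any ED19 library. The part of cell composition, RNA integrity, GC content and mapping in the differences of the 7 subunits was not tested.

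Genes whose pattern over the 6 libraries was most like that of the summed members were sought among 3941 candidates with a symbol. Candidates had a mean log2 CPM of at least 3, and the mitochondrial mRNAs were left out. Among candidates Pearson's r was highest for STAB1, a scavenger receptor (0.999), and NLE1, a ribosome biogenesis factor (0.998). Next came PIEZO1, a mechanosensitive channel (0.996), ATP2B4, a plasma membrane calcium pump (0.996), and LDB1, a transcriptional cofactor (0.995). CYTB, left out as a mitochondrial mRNA, had r of 0.9990, against 0.9986 for STAB1. Such values were common, since 175 candidates (4.44%) exceeded 0.95, and the 6 points share stage and library. STAB1 had 5.18, 6.22 and 3.78 RPKM at ED16 and 2.05, 1.89 and 0.821 RPKM at ED19, with ED19_6 lowest as for ND1, ND2, ND4 and ND5. The members themselves had r of 0.989 or more with their sum for ND1, ND2, ND4 and ND5, 0.925 for ND4L, 0.896 for ND6 and 0.877 for ND3. Each member is part of that sum, so its r cannot be set beside that of genes outside the sum. Among genes outside it, the 5 other mitochondrial mRNAs had r of 0.961 (ATP6) to 0.999 (CYTB). The 16 nuclear complex I subunits had r of 0.471 to 0.810.

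Depth did not limit these values, since the gene counts summed to between 27087661 and 34614652 per library and the smallest count of a member was 434. With 3 counts taken as the floor, a library could show a share of 8.67e-06% to 1.11e-05% of its counts. PCR copies make reads dependent on each other, and the floor accounts for counting error alone. Reads shared with nuclear copies of mitochondrial sequence cannot be told apart in these counts.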

How the data were processed

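RNA from 3 pools of bursas per stage was sequenced after poly-T selection. The authors deposited raw counts per gene and the RPKM computed from them. Gene lengths were recovered from the ratio of both after scaling by the summed counts of each library, and came out whole within 0.1 bases. Per the submitters' processing notes, galGal4, CASAVA 1.8, TopHat2 2.0.12, HTSeq 0.601 and DESeq 1.10.1 were used. The counting mode and its strand setting were not given in the sources used here. The authors also deposited a table of 8469 called genes with a signal per stage, a log2 fold change and p-values. These comparison columns were not used, and the table served only for gene symbols, which 6460 of its genes carry. It was used to find members and lists. COX2 could not be matched by symbol and was used in an added alternative only, by its InterPro description.

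The count test was run in R 4.3.3 with edgeR 4.0.16, using filterByExpr, TMM normalization, quasi-likelihood F test, Benjamini-Hochberg adjustment over all 13923 tested genes with calls at an adjusted p below 0.05. Standard errors of log2 fold changes were derived from the F statistic, as the change over the root of F. Shares and ratios per library were computed with Python 3.11.15, pandas 2.3.3, numpy 2.4.6 and scipy 1.17.1, and figures with matplotlib 3.10.9. Shares and ratios summed over the members are given as values with no p, and the pooled SD is the root mean square of the SDs of both stages. With 3 libraries against 3, an exact permutation test cannot go below p = 0.1. The scripts were tested on simulated data.

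Named genes were the 7 members, the other mitochondrial mRNAs and, outside the mitochondrial mRNAs, the 5 genes most alike. From each nuclear list came the 4 called genes with the largest log2 fold change and mean log2 CPM not under 3. Genes called against the list's main direction (at most 3) were added. NDUFB4, NDUFB6, NDUFB8, NDUFB9, NDUFA12, MTERF2, FASTKD2, FASTKD3, SSBP1, the genes for mitochondrial mass and the markers at 0 were named after their values were seen. The members and lists were chosen with earlier results of these data known. Genome order and overlaps come from RefSeq (GRCg7b), a different build, so no coordinates are given.

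The alternatives were upper-quartile normalization, normalization without mitochondrial mRNAs, no filter on low counts, a minimum of 10 counts in each library, DESeq2 1.42.0, limma 3.58.1 on log2(RPKM + 1), a loess correction for gene length (span 0.5) and leaving out each library. Nothing says that pools of a stage came from separate flocks or days, so p-values measure only the spread between these pools.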

Additional observations from a re-analysis of the deposited data

How the results depend on the processing

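All 7 members kept their direction and their call under upper-quartile normalization, normalization without mitochondrial mRNAs, no filter on low counts, a minimum of 10 counts in each library, DESeq2, limma and in the fits without 1 library. The length correction lost ND4L. A length correction that also removed the mean shift of each library, one of several alternatives chosen after seeing the data, left 4 members called (ND3, ND4, ND5 and ND6) and 5 nuclear complex I subunits. It moved the median of all genes from 0.05 to -0.39, and NDUFA12 (-0.0078) and SSBP1 (-0.23) changed sign. Both length corrections left 1 DNA maintenance gene higher at ED16, in place of 4 (TWNK). Relative to the other mitochondrial mRNAs, ND1 (-0.0023) and ND5 (-0.18) changed sign, neither being called there. Upper-quartile normalization moved the median of all genes to 0.26, with 5638 genes higher at ED16 and 3446 higher at ED19 against 4953 and 4287. Counting cytochrome c oxidase subunit II among the other mitochondrial mRNAs gave a log2 difference of 0.05 in place of 0.03, and leaving ND3 and ND6 out of the members gave -0.04. Why these values moved was not tested beyond the construction of each setting. No paired analysis was possible because the ED16 libraries are numbered 1 to 3 and the ED19 libraries 4 to 6, so the stages share no replicate number.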
